A study of Mus musculus with 8 samples.

Results

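Klf7, Ikzf2, Arid5a, Creb1, Nab1 and Sox17 are 6 genes of transcription factors, or of their direct partners, that were measured in single cells of mouse stomach glands. They were taken by name from a table of 779 genes and were described over the 1388 of 1460 cell barcodes that held at least 100 unique molecular identifiers (UMIs, tags that count captured RNA molecules). The mice were 23 weeks old and of 1 genotype, Atp4bCre; Rosa26NICD; Arid1a flox/flox. In such mice Cre is driven by the promoter of Atp4b, a proton pump subunit gene of acid-secreting parietal cells. There it recombines 2 loci: Rosa26NICD, which then makes the active intracellular piece of the Notch receptor, and the floxed alleles of Arid1a, the gene of a subunit of BAF chromatin remodellers. Every cell measured therefore came from a mouse carrying all 3 alleles, and no other genotype was available for comparison. The cells had been sorted for high EPCAM, an epithelial surface protein, and for low staining with Sytox Blue, which enters dead cells, and were then processed on the droplet-based 10x platform.

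The labels name 8 samples, without saying whether they came from separate animals, and the barcodes carry no sample name. All barcodes were therefore treated as 1 sample with no replicates, and no p-value is given. No source states that the counts are UMIs rather than reads. They were read as UMIs, and if they are reads, a count is not a molecule and the intervals are too narrow. Intervals in brackets are exact 95% intervals, and they cover counting error only. The table holds genes of the first part of chromosome 1, so the barcode totals, with a median of 286 UMIs and a range from 100 to 1082, are not library depth. Levels are given in CPM, UMIs of a gene per 1000000 UMIs of this table. Of 6 epithelial markers, only Vil1, which encodes the microvillus protein villin, has a row, and it was detected in 61.5% of barcodes. Col3a1, Col5a2 and Des, markers of fibroblasts and muscle, had 1 UMI each. RNA free in the droplets was not measured, since no cell type that lacks these genes could be named.

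Of the proteins, 5 belong to families that read DNA directly. KLF7 is a zinc finger factor of the Krüppel-like family, which binds GC-rich sites. Helios, the product of Ikzf2, is a zinc finger factor of the Ikaros family, best known from lymphocytes. ARID5A carries an AT-rich interaction domain and also binds messenger RNA. CREB1 is phosphorylated downstream of cAMP and calcium signals and acts at cAMP response elements. SOX17 is an HMG-box factor of definitive endoderm and of endothelium. NAB1 does not bind DNA itself: it is a corepressor that docks on the early growth response factors EGR1 and EGR2.

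All 6 genes lie on chromosome 1 of the mouse build mm10 (GRCm38). By the GENCODE vM21 annotation, Sox17 runs from 4490931 to 4497354 on the minus strand and Arid5a from 36307733 to 36324029 on the plus strand. Nab1 lies on the minus strand between 52457294 and 52500679. Klf7 (64029447 to 64122282, minus strand) and Creb1 (64532645 to 64604548, plus strand) are near neighbours, followed by Ikzf2 (69531214 to 69687245, minus strand). On the strand opposite to Klf7 the annotation places the lincRNA Gm26649, which shares 3196 exonic bases with it. Gm26649 had 0 UMIs, which allows up to 3 UMIs in the table. Gm37587 shares 804 exonic bases with Sox17 and Gm29114 shares 144 with Ikzf2, and neither has a row. Whether the counting used strand is not stated, so reads of these antisense genes could be counted with the sense gene.

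RefSeq promoter sequences (GRCm38.p6) were matched for 4 of the 6 genes: Klf7, Arid5a, Creb1 and Nab1. The sequences of Arid5a and Klf7 are shown because these are the genes whose levels differed most with barcode depth, in the same direction. The capitals mark the GC box GGGCGG, a 6-base element that Krüppel-like and Sp factors can bind. The Arid5a stretch is the whole 250 bases before the RefSeq start site (chr1:36307483-36307732, plus strand). For Klf7 the stretch is the part of those bases that holds no annotated exon (chr1:64121492-64121639, minus strand). By the GENCODE annotation, whose Klf7 begins farther upstream at 64122282, the Klf7 stretch lies within the gene.
Arid5a: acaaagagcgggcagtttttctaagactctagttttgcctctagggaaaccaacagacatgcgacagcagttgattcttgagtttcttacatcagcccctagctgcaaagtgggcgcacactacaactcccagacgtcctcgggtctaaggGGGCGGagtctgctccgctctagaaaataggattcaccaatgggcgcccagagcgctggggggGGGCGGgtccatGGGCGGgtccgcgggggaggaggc
Klf7: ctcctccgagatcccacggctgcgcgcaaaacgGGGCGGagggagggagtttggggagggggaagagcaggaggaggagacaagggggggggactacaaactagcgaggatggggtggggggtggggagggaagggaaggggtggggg
The GC box occurs 3 times in the Arid5a stretch and 1 time in the Klf7 stretch. Searched on both strands over the full 250 bases, it was found for each of the 4 genes, though the exon-free parts for Creb1 and Nab1 hold 0, and also in 32.7% of all 32851 RefSeq promoters and in 44.6% of the 469 promoters of genes in the table.

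Nab1 differs from the other 3 by holding the EGR core GCGTGGGCG, the site read by the factors that NAB1 docks on. This core lies on both strands, in capitals below, at 109 bases (chr1:52500540-52500566) and 141 bases (chr1:52500572-52500598) before the RefSeq start site. By the GENCODE annotation, whose Nab1 begins farther upstream, both windows lie within the gene, and 231 of the 250 bases searched are Nab1 exon. Both 27-base windows are written along the minus strand, on which Nab1 lies.
Nab1 nearer window: ctcggccgcGCGTGGGCGggagccgga
Nab1 farther window: ccccgcggcCGCCCACGCcgggatctg
The EGR core occurs in 0.536% of all RefSeq promoters and in 1.07% of those of genes in the table, and 5 of 384 table genes with a promoter hold it. The EGR core and the GC box have letters in common, so their matches can overlap. The cAMP response element TGACGTCA, the CREB1 site, was found in none of the 4, and its shorter core TGACG only in Nab1. These are matches of letters in a window and no measure of binding.

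Nab1 was the most abundant of the 6. It had 658 UMIs, a level of 1496 CPM (1384 to 1615), and was detected in 33.1% of barcodes. Creb1 followed with 404 UMIs at 919 CPM (831 to 1013), in 23.6% of barcodes. Klf7 had 312 UMIs at 709.5 CPM (633 to 793), in 17.7%. These 3 genes thus gave most of the members' UMIs, and even Nab1 went undetected in most barcodes. Ikzf2 had 221 UMIs at 503 CPM (438 to 573), in 12.97%. Arid5a had 91 UMIs at 207 CPM (167 to 254), in 6.05%. Sox17 was rare, with 34 UMIs at 77.3 CPM (53.5 to 108), in 27 barcodes or 1.95%.

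To compare genes of unequal length, each level was divided by the merged exon length. On this scale Nab1 stood at 365 CPM per kb (338 to 394), far above the next gene. Klf7 followed at 87.3 (77.8 to 97.5), then Creb1 at 66.9 (60.5 to 73.7) and Ikzf2 at 43.3 (37.8 to 49.4). The intervals of these neighbours did not overlap. Arid5a at 16.5 (13.3 to 20.3) and Sox17 at 16.2 (11.2 to 22.6) could not be separated. The source does not say which end or part of the transcript was read. Where only 1 end is read, dividing by length lowers genes with long exons, such as Creb1 (13742 bases), against short ones, such as Nab1 (4100 bases). The order on this scale is then no order of RNA amount. Undivided, Creb1 stood above Klf7.

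Most detections were of a single UMI. Klf7 was seen once in 196 of its 246 barcodes, with 2 UMIs in 38 and 3 or more in 12, and with at most 5. Nab1 had 1 UMI in 324 of 459 barcodes and at most 6. The share of barcodes with a UMI was below what the same UMIs would give if spread in proportion to the barcode totals. This spread was taken within each of the 5 bins of barcode total used below. The observed number of barcodes over that expectation was 0.807 for Sox17, 0.884 for Klf7, 0.885 for Ikzf2, 0.932 for Nab1, 0.941 for Creb1 and 0.954 for Arid5a. That ratio was not taken for the other genes of the table. The variance over its Poisson expectation, within the same bins, was 1.44 for Sox17, 1.33 for Klf7, 1.25 for Ikzf2, 1.23 for Nab1, 1.14 for Creb1 and 1.11 for Arid5a. Over the 188 genes with 50 to 1000 UMIs its median was 1.07, with quartiles of 1.02 and 1.15. Klf7, Ikzf2 and Nab1 were therefore more unevenly spread over barcodes than 3 in 4 genes of like abundance, while Creb1 and Arid5a lay within the quartiles. No member rested on a few barcodes: the 3 richest held 13 of the 312 Klf7 UMIs, 16 of the 658 Nab1 UMIs and 7 of the 34 Sox17 UMIs.

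The 5 more abundant genes differed in level between shallow and deep barcodes. Klf7 stood at 1006 CPM in barcodes of 100 to under 200 UMIs, at 1002 and 752 in the next bins (from 200 and from 300), at 475 from 400 to under 600 and at 332 from 600 up. Arid5a went from 387 CPM through 288, 207 and 121 to 82.9, and Creb1 from 1471 through 1042, 818 and 769 to 705. Ikzf2 was at 658, 665, 555, 347 and 311 CPM in the same bins. All 4 were thus highest in one of the 2 shallowest bins and lowest in the deepest. Nab1 ran the other way, from 1180 CPM through 1309, 1524 and 1628 to 1803. Sox17, with 4 to 11 UMIs per bin, showed no order that its intervals could resolve.

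**Figure D1:**
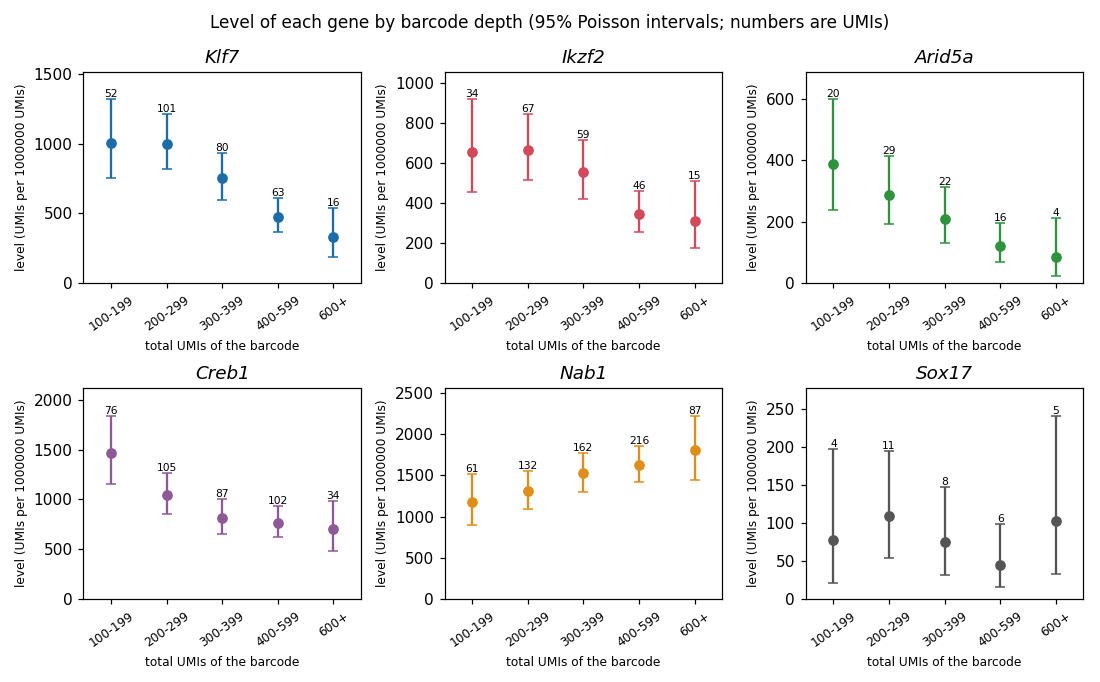
Level of each gene (vertical axis, UMIs per 1000000 UMIs, starting at 0) in 5 bins of barcode total (horizontal axis), with 95% Poisson intervals and the number of UMIs above each point. Klf7, Ikzf2, Arid5a and Creb1 have lower levels in the 2 deepest bins than in the 2 shallowest, and Nab1 has higher ones.

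Levels in barcodes of 100 to under 200 UMIs were then set against those in barcodes of 400 or more. The ratio was 3.50 for Arid5a (1.79 to 6.86), 2.304 for Klf7 (1.59 to 3.31), 1.96 for Creb1 (1.46 to 2.61) and 1.95 for Ikzf2 (1.24 to 3.02). All 4 were at least 1.5-fold higher in shallow barcodes, against 29.2% of the 240 genes with 50 or more UMIs. For Nab1 the ratio was 0.705 (0.526 to 0.931), lower in shallow barcodes but short of 1.5-fold, a drop that 10.4% of the 240 genes reached. The median over the 240 genes was 1.17. Sox17, at 1.27 (0.296 to 4.30), had too few UMIs to be placed.

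**Figure D2:**
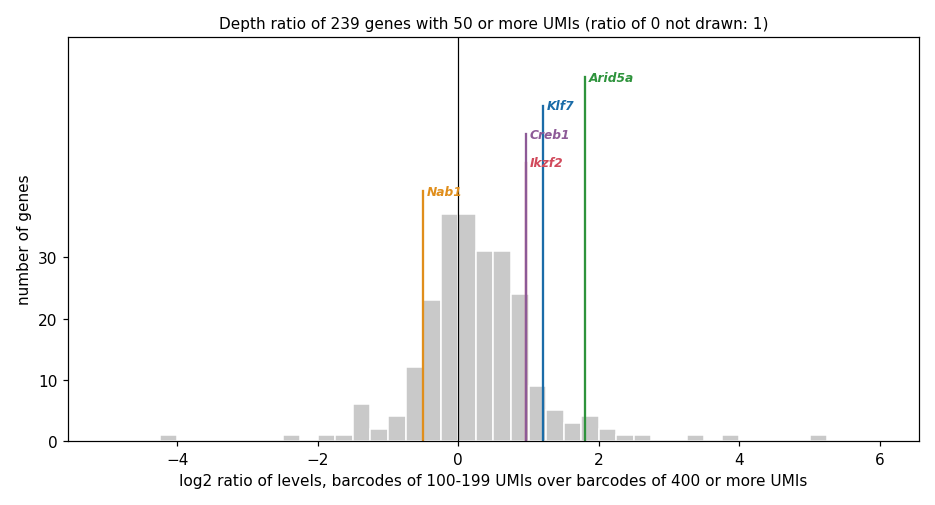
Histogram of the log2 ratio of levels in shallow over deep barcodes (horizontal axis) for genes with 50 or more UMIs, with the number of genes on the vertical axis. Coloured lines mark 5 of the 6 genes: Nab1 lies left of 0 and the other 4 right of it.

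The other listed transcription factor and coregulator genes with 50 or more UMIs lay above 1, so none of them went the way of Nab1. A list of 25 DNA-binding transcription factors, 5 of the 6 genes among them, had a row for each, a UMI for 16 and at least 50 UMIs for 7. All 7 were at least 1.5-fold higher in shallow barcodes, with a median ratio of 2.09. Besides the 4 members these included the zinc finger genes Zfp142 at 2.19 (1.07 to 4.35) and Zfp451 at 2.09 (1.42 to 3.05). Of 13 transcriptional coregulators 7 had at least 50 UMIs, with a median of 1.56. Ncoa2, Kansl3, Phf3 and Ino80d passed 1.5-fold in shallow barcodes, Fhl2 and Tcea1 stood at 1.19 and 1.17, and Nab1 was the only one of the 7 below 1.

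Other measures moved with depth as well. The 3 ribosomal protein genes Rpl37a, Rpl7 and Rpl31 took 41.2% of UMIs in the shallowest bin and 38.0% in the deepest, while Ptma, the prothymosin alpha gene, took 7.33% and 12.7%. Of 6 markers of cycling cells 3 have rows. Mcm3, a subunit of the replicative helicase, went from 522 to 1575 CPM over the bins, Sgol2 had 0 of its 53 UMIs in the shallowest bin, and Hjurp had a ratio of 0.997. Of 5 tuft cell markers, the 2 with rows, Ptpn18 and Inpp5d, were higher in shallow barcodes, at 2.00 and 5.83. The part of these measures in the members' ratios was not tested as a whole, but the ratios were recomputed without the cluster of barcodes led by Sgol2 (cluster 2 below), which held 15 of 330 shallow and 186 of 346 deep barcodes. Without it Arid5a stood at 2.17 (1.03 to 4.68), Klf7 at 1.63 (1.08 to 2.46) and Creb1 at 1.62 (1.15 to 2.29). The ratio of Ikzf2 became 1.43, and its interval (0.865 to 2.34) then included 1. Nab1 was at 0.660 (0.479 to 0.900).

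Within single clusters the counts were small. For Klf7 the shallow to deep ratio was 3.13 (1.26 to 7.45) in cluster 3 and 2.98 (1.21 to 7.58) in cluster 4. In cluster 1, with 24 and 15 UMIs, it was 0.839 (0.423 to 1.72), so the difference for Klf7 was not seen in every cluster. Creb1 in cluster 1 was at 2.26 (1.12 to 5.03). Ikzf2 was at 2.52 (0.942 to 8.45) in cluster 1, 1.04 (0.257 to 3.17) in cluster 3 and 0.858 (0.147 to 3.58) in cluster 4. Its interval included 1 in each of clusters 1 to 4. Arid5a was above 1 in each of these clusters, and its interval excluded 1 only in cluster 1, on 14 and 1 UMIs. For Nab1 the ratio was below 1 in each of clusters 1 to 4, and its interval excluded 1 only in cluster 4, at 0.245 (0.0477 to 0.794).

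Shares of barcodes with a UMI depend on depth itself. Untouched, the share for Klf7 went from 14.2% in the shallowest bin to 21.7% in the deepest. When each barcode was thinned to 100 UMIs, it went from 9.36% to 3.23%. The thinned share of Creb1 went from 13.1% to 6.87%, that of Arid5a from 4.14% to 0.820%, and that of Ikzf2 from 5.97% to 3.05%. For Nab1 it went from 11.8% to 16.2%. The thinned shares therefore moved in the direction of the CPM for all 5 genes. They are computed from the same counts and totals, so this is no separate check of the difference with depth.

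Most barcodes held UMIs of few members. None was detected in 503 barcodes, 1 in 545, 2 in 254, 3 in 75, 4 in 10 and 5 in 1 barcode. Since deep barcodes detect more of every gene, each pair was compared with the number of shared barcodes expected from the 2 shares within each depth bin, summed over the 5 bins. Klf7 and Ikzf2 were found together in 44 barcodes where 32.7 were expected, a ratio of 1.35 (0.979 to 1.81). Ikzf2 and Arid5a shared 16 barcodes against 11, a ratio of 1.45 (0.832 to 2.36), and Klf7 and Arid5a 19 against 14.97, a ratio of 1.27 (0.764 to 1.98). Nab1 was shared with Arid5a in 35 barcodes against 27.8, a ratio of 1.26 (0.876 to 1.75). The interval of each of the 15 pairs included 1, so no pair was separated from independence at this depth.

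At the lower end, Creb1 and Nab1, the most often detected genes, met in 117 barcodes where 118 were expected, a ratio of 0.991 (0.820 to 1.19). Of the 15 intervals this was the narrowest. Ikzf2 and Nab1 shared 62 barcodes against 63.3, a ratio of 0.979 (0.751 to 1.26), and Klf7 and Nab1 87 against 84.7. Of the 10 pairs without Sox17, 8 had a ratio above 1, against 55.8% of 7957 pairs of genes detected in as many barcodes. Their median was 1.16, while the middle of the 7957 pairs lay between 0.933 and 1.11 with a median of 1.02. The 10 pairs share 5 genes and are not independent of each other, and with every barcode thinned to 100 UMIs the ratio was above 1 for 4 of the 10. The pairs of Sox17 rested on 1 to 11 shared barcodes, and their ratios between 0.606 and 1.58 carry no order.

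Klf7, Ikzf2 and Arid5a, the trio with the highest pair ratios when Sox17 is left out, were all detected in 6 barcodes. The expected number was 2.00 (ratio 2.99, 1.10 to 6.52). This trio was picked after its values were seen.

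**Figure D3:**
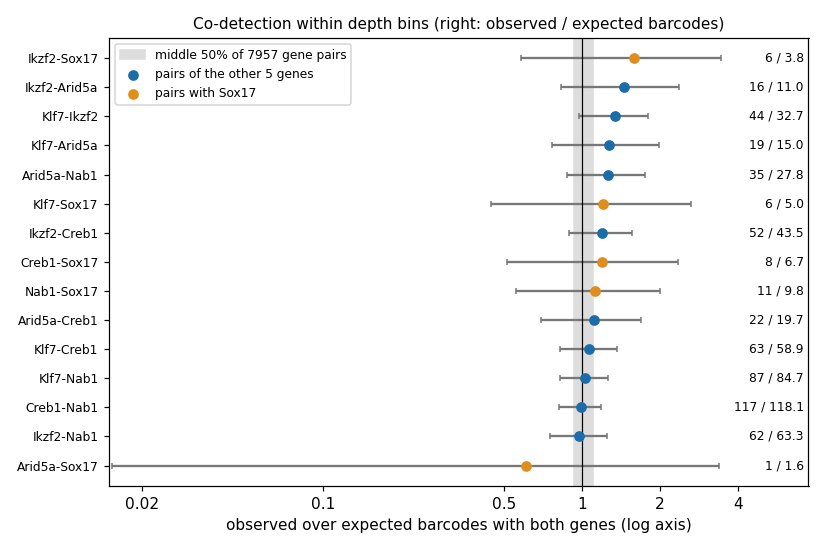
Barcodes with UMIs of both genes over the number expected within depth bins (horizontal log axis) for the 15 pairs, with 95% Poisson intervals and observed over expected numbers at the right; the grey band spans the middle of the ratios of 7957 gene pairs. The interval of every pair crosses 1, and Ikzf2-Arid5a and Klf7-Ikzf2 have the highest ratios among pairs without Sox17.

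For the genes that go with each member, UMIs of every gene in barcodes with the member were compared with the number expected from barcodes without it in the same depth bin. Genes with 10 or more expected UMIs were kept. This filter uses the barcodes without the member and so keeps more genes with low ratios than with high ones. The genes named are the 5 highest and 5 lowest whose interval on the observed number excludes 1. The intervals printed are wider, since they also take the error of the expected number. For every companion they treat several UMIs in 1 barcode as independent. They are therefore too narrow for genes whose UMIs gather in few barcodes. Arl4c had 1058 UMIs in 439 barcodes and Alpi 247 in 61.

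In barcodes with Klf7, 7 of 230 genes (3.04%) were 1.5-fold or more higher and 11 (4.78%) lower. Arl4c, which encodes a small GTPase of the ARF family, had 285 UMIs where 172 were expected, a ratio of 1.65 (1.44 to 1.90). Ptpn18, a tyrosine phosphatase gene on the tuft cell list, had 247 against 153, a ratio of 1.62 (1.39 to 1.87). Hjurp, the chaperone gene of centromeric histone, was at 1.65 (1.27 to 2.13). These 3 genes had the most UMIs behind their ratios, and B3gnt7 at 1.75 and Smarcal1 at 1.65 completed the highest 5. On the low side Ptprn, a secretory granule gene of endocrine cells, had 5 UMIs against 25.8, a ratio of 0.194 (0.0617 to 0.467). Mcm3 was at 0.595 (0.422 to 0.821), Il18r1 at 0.607 (0.439 to 0.822), Pecr at 0.626 (0.448 to 0.857) and Usp37 at 0.535 (0.276 to 0.954). Barcodes with Klf7 thus held less Mcm3 and less Ptprn, while the epithelial marker Vil1 stood at 1.02 (0.897 to 1.15). The other cycling markers were not low: Hjurp was high, as given above, and Sgol2 was at 0.931 (0.417 to 1.88). With barcodes thinned to 100 UMIs, the ratio was 1.20 for Arl4c, 0.597 for Ptprn and 0.369 for Mcm3.

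In barcodes with Ikzf2, 9 of 223 genes (4.04%) were higher and 8 (3.59%) lower. Klf7 itself was among the highest 5, with 61 UMIs against 38.9, a ratio of 1.57 (1.17 to 2.08). In turn, Ikzf2 had 55 UMIs in barcodes with Klf7 where 36.9 were expected, a ratio of 1.49 (1.08 to 2.03). Both intervals excluded 1, but both directions rest on the same 44 shared barcodes. They also treat several UMIs in 1 barcode as independent. Counted by shared barcodes, the interval of this pair included 1. Kdelc1, which encodes a glycosyltransferase of the endoplasmic reticulum, was highest at 2.17 (1.38 to 3.32), followed by Slc23a3 at 1.83 (1.11 to 2.91). Hibch, an enzyme gene of valine breakdown, was at 1.60 (1.19 to 2.14), and Bivm at 1.53 with an interval that reached below 1. Slc23a3 was at 0.827 when barcodes were thinned. The lowest was Ptprn, as for Klf7, at 0.266 (0.0848 to 0.641), and at 0.757 when thinned. Alpi, the intestinal alkaline phosphatase gene of enterocytes, was at 0.441 (0.257 to 0.713). Its 3 richest barcodes held 83 of its 247 UMIs, and without them its ratio was 0.672 (0.387 to 1.10); thinned it was 1.29. Wdr75, Rqcd1 and Tm4sf20 stood at 0.570, 0.614 and 0.632.

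In the 84 barcodes with Arid5a, 8 of 180 genes (4.44%) were higher and 9 (5%) lower. Arl4c was again highest, with 123 UMIs against 60.4, a ratio of 2.04 (1.67 to 2.46). Klf7 had 30 against 18.3, a ratio of 1.64 (1.09 to 2.39), which became 1.42 (0.905 to 2.15) without the 3 barcodes richest in Klf7 and 0.824 when thinned. Ikzf2 had 21 against 13.1, a ratio of 1.60 (0.971 to 2.52), and Nab1 54 against 39.3, a ratio of 1.37 (1.02 to 1.81). In turn, Arid5a was at 1.31 (0.753 to 2.17) in barcodes with Klf7 and at 1.45 (0.933 to 2.25) in those with Nab1. Neither pair was thus held apart from 1 in both directions. Tex30, Hibch and Pde6d were at 1.61, 1.58 and 1.57. Ccl20, an epithelial chemokine gene, was lowest with 10 UMIs against 31.5, a ratio of 0.317 (0.151 to 0.589). Abcb6, Orc2, Wdr12 and 2810459M11Rik had ratios of 0.366, 0.419, 0.547 and 0.548, and the first 2 were above 1 when thinned (1.12 and 1.27). Vil1 was at 0.761 (0.5998 to 0.952) in these barcodes.

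In barcodes with Creb1, 4 of 248 genes (1.61%) were higher and 10 (4.03%) lower, the smallest share of higher genes among the 5 members. Of the 5 highest, only Ankrd44, at 1.55 (1.02 to 2.34), had an interval above 1, and thinned it was at 0.977. Sbspon, Fbxo36, Inpp4a and Ogfrl1, at 1.69, 1.58, 1.52 and 1.45, did not. Tm4sf20, a membrane protein gene, was low at 0.650 (0.508 to 0.823), with 88 UMIs against 135, and without the deepest 5% of barcodes its ratio was 0.852. Prim2, a DNA primase subunit gene, was at 0.606 (0.352 to 0.999) and Fam135a at 0.711 (0.485 to 1.02). Mogat1 was at 0.256 (0.0504 to 0.809), at 0.493 (0.0937 to 1.66) without the 3 barcodes that held 16 of its 39 UMIs, and at 0.974 when thinned. Resp18, an endocrine gene, was lowest at 0.220, but 60 of its 74 UMIs sat in 3 barcodes, and without them its ratio was 1.26 (0.288 to 4.36). Over all 248 genes, named here or not, 9 had an interval above 1 with Creb1 and 10 had one below 1. The 9 above 1 were the fewest among the 5 members.

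Genes of the table with a CREB1 site were also compared with those without. Of 189 genes with a promoter and a ratio for Creb1, the 5 with the full element TGACGTCA had a median ratio of 1.03, and the 184 without it 0.996. Of the 5 genes 1 was 1.5-fold or more higher, and 5 are too few to tell whether such genes differ. For the shorter core TGACG the medians were 0.995 over 74 genes and 0.998 over 115. Of the 74 genes 2 were 1.5-fold or more higher. Of 16 known CREB1 targets, 1 has a row: Scg2, the secretogranin 2 gene, with 13 UMIs in 2 barcodes.

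In barcodes with Nab1, 6 of 264 genes (2.27%) were higher and 14 (5.3%) lower. Alpi was highest, with 162 UMIs against 59.9, a ratio of 2.71 (2.07 to 3.56), and 1.75 (1.27 to 2.43) without the 3 barcodes richest in it. Its ratios with Ikzf2, given above, were not held apart from 1 without those barcodes, and its ratio with Klf7 was 0.841 (0.586 to 1.18). Kctd18 was at 2.23 (1.35 to 3.72), Slc23a3 at 1.87 (1.25 to 2.83; thinned 0.970) and Igfbp5, an insulin-like growth factor binding protein gene, at 1.74 (1.22 to 2.47). Resp18 was at 1.67, with an interval that reached below 1, and at 0.495 without its 3 richest barcodes. Ugt1a6a had 1 UMI against 13.4, a ratio of 0.0748 (0.00178 to 0.486). Of the other low genes, Myl1 at 0.289 and Mogat1 at 0.403 came to 0.962 and 0.985 without their 3 richest barcodes, and Gulp1 at 0.364 and C430014B12Rik at 0.417 had intervals that included 1. Thinned, Myl1 was at 1.20 and Gulp1 at 1.27. Among the coregulators, Fhl2 was at 1.24 (1.12 to 1.37) with Nab1, on 721 UMIs. The other members stood at 0.914 (Creb1), 0.952 (Ikzf2), 1.10 (Klf7) and 1.45 (Arid5a) with Nab1, and each interval included 1.

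Of the 50 ratios of named companions, 41 had an interval that excluded 1, and 15 of these lost it without the 3 barcodes richest in the named gene. Besides those given above, these were B3gnt7 and Usp37 with Klf7, Slc23a3, Rqcd1 and Tm4sf20 with Ikzf2, Pde6d, Orc2 and Wdr12 with Arid5a, and Prim2 with Creb1. Thinning to 100 UMIs moved 25 of the 50 by over 1.5 times.

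**Figure D4:**
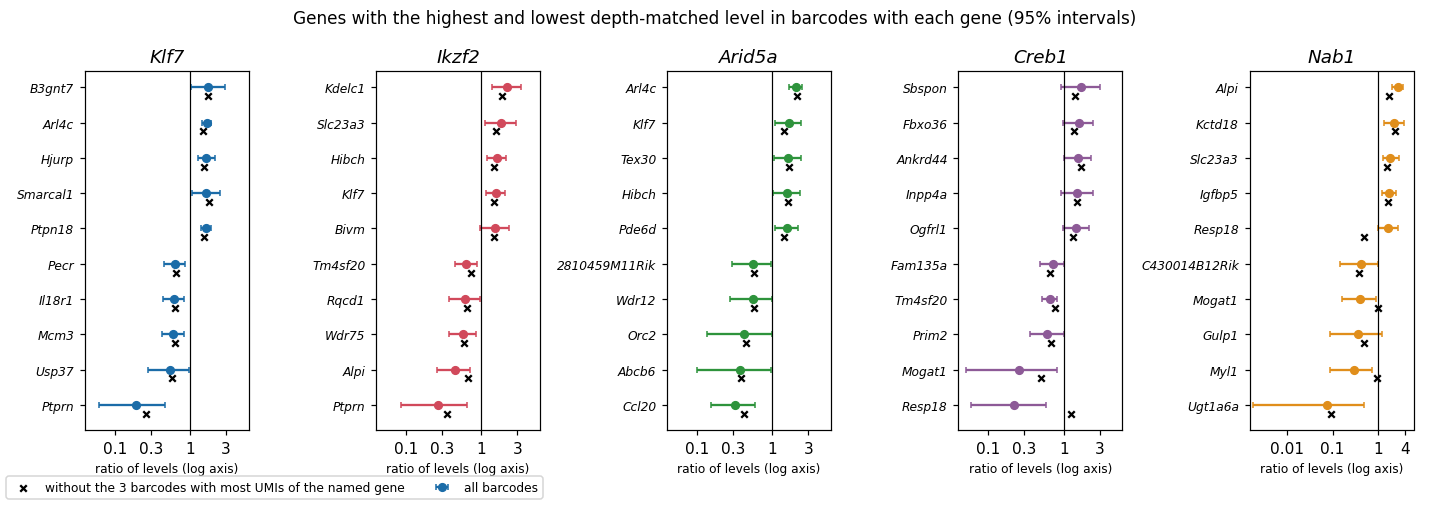
Ratio of observed to expected UMIs (horizontal log axis) of the 5 highest and 5 lowest genes in barcodes with each of 5 members, with 95% intervals that take the error of both numbers; crosses show the ratio without the 3 barcodes with most UMIs of the named gene. Arl4c is high with Klf7 and Arid5a, Ptprn is low with Klf7 and Ikzf2, and the cross of Resp18 lies on the other side of 1 from its point with Creb1 and with Nab1.

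Sox17 was detected in too few barcodes to rank genes by the same rule. The values here were therefore picked after they were seen. In its 27 barcodes 1110058L19Rik had 39 UMIs against 17.6, a ratio of 2.21 (1.56 to 3.05). Ihh, the gene of the secreted signal Indian hedgehog, had 22 against 11.3, a ratio of 1.96 (1.22 to 2.99). Slc9a4, a sodium-proton exchanger gene of parietal cells, was at 1.55 (1.05 to 2.21). Tm4sf20 had 1 UMI against 10.7 and Arl4c 10 against 22.9, a ratio of 0.436 (0.209 to 0.805). Gsta3, a glutathione transferase gene, was detected in 26 of the 27 barcodes. From its share in all barcodes of the same depth bins 20.5 would be expected. Vil1 was detected in 17 against 17.5. Sox17 barcodes thus held the epithelial marker about as often as barcodes of like depth did. Sox17 is also 1 of 5 endothelial markers, of which the other 4 have no row, so endothelial RNA could not be checked.

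Correlations of Pearson residuals over the 1388 barcodes were weak for every member and are given as a description only, since the points share the barcode totals. For Klf7, Ptpn18 (0.125) and Inpp5d (0.116) were among the highest 3. Arid5a was most like Pde6d (0.107), Arl4c (0.104) and Itm2c (0.0950), and Ikzf2 like Gsta3 (0.0989), Slc9a4 (0.0987) and Klf7 (0.0980). For Creb1 they were Ikzf2 (0.0846), Cyp27a1 (0.0700) and Smarcal1 (0.0696). For Nab1 they were Arpc2 (0.119), Alpi (0.112) and Acsl3 (0.1001), and for Sox17 Cnnm3 (0.131), 1110058L19Rik (0.116) and Phf3 (0.0922).

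The members were also compared across 6 clusters of barcodes made from 244 other genes, with the members and all listed genes left out. The clusters rest on too few markers to carry names and are given by number and leading genes. Cluster 1 (460 barcodes) was led by Resp18, Igfbp2, Inpp5d, Igfbp5 and Fn1, though 60 of the Resp18 UMIs came from 3 barcodes. Cluster 2 (331) was led by Sgol2, 2810408I11Rik, Bard1, Prim2 and Mcm3, which include genes of replication and chromosome segregation. Cluster 3 (248) was led by Gsta3, Alpi, Xkr9, Cyp27a1 and Il1r1. Cluster 4 (216) was led by Gm3940, Pkhd1, Cspp1, Eef1b2 and Myl1, with 49.3% of its UMIs in the 3 ribosomal protein genes. Cluster 5 (98) was led by Arl4c, Tm4sf20, Ptprn, Arid5a and Rdh10, and cluster 6 (35) by Ccl20, Myl1, Igfbp5, Tm4sf20 and Il18rap. Some leaders rest on little: 3 barcodes gave 70 of 105 Alpi UMIs in cluster 3 and 9 of 10 Myl1 UMIs in cluster 4. In cluster 6, 3 barcodes gave all 27 Myl1, 30 of 36 Tm4sf20 and 8 of 13 Igfbp5 UMIs. Likewise 3 barcodes gave 25 of 47 Igfbp2 UMIs in cluster 1 and 22 of 40 Ptprn UMIs in cluster 5. The intervals of Cspp1 and Myl1 in cluster 4 and of Il18rap in cluster 6 included 1. Median totals ran from 210.5 UMIs in cluster 1 to 424 in cluster 2, so each ratio to the other barcodes was also taken within depth bins. Where the clustering was varied, ratios are those of the new cluster with the largest overlap. Overlap is the number of barcodes in both clusters over the number in either.

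Klf7 was highest in cluster 5. It stood there at 1246 CPM (890 to 1697), against 941 in cluster 3, 903 in cluster 1, 757 in cluster 6, 663 in cluster 4 and 341 (253 to 450) in cluster 2. Its ratio to the other barcodes was 1.87 (1.31 to 2.61) in cluster 5 and 0.382 (0.276 to 0.518) in cluster 2, and 1.89 and 0.488 within depth bins. Ptprn, which was low in barcodes with Klf7, was nonetheless high in cluster 5, at a ratio of 6.96 (4.61 to 10.4). Genes whose interval lay above 1 made up 13.3% in cluster 5, and those below 1 made up 37.5% in cluster 2. In cluster 3 (21.7% above 1) Klf7 was at 1.43, and at 1.38 within depth bins. With 5 or 12 components in the clustering it was at 1.06 or 1.00, at overlaps of 0.774 and 0.663. In cluster 1 (37.5% above 1) the ratio of 1.40 turned to 0.926 (0.721 to 1.18) within depth bins.

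Ikzf2 was highest in cluster 3, at 839 CPM (649 to 1068), with a ratio of 1.95 (1.44 to 2.62) and of 1.96 within depth bins. It was at 623 CPM in cluster 5, 571 in cluster 1, 426 in cluster 4, 379 in cluster 6 and 287 in cluster 2, where the ratio was 0.469 (0.327 to 0.660) and 0.561 within depth bins. Arid5a was highest in cluster 5, at 530 CPM (309 to 848), with a ratio of 2.92 (1.61 to 4.99) and of 3.05 within depth bins. In the best-matching cluster its ratio was 1.67 at resolution 0.25 and 1.89 with 5 components. The overlaps with cluster 5 were only 0.107 and 0.487, so these are largely other barcodes. Outside cluster 5 Arid5a ranged from 94.7 CPM in cluster 6, on 1 UMI, to 267 in cluster 1. Klf7 and Arid5a thus shared their highest cluster, the one led by Arl4c, and Klf7 and Ikzf2 were both low in cluster 2. The ratio of Arid5a in cluster 2, 0.460 (0.254 to 0.786), was 0.610 (0.337 to 1.04) within depth bins.

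Creb1 was the most even of the 5, between 935 and 992 CPM in clusters 3 to 6, at 1142 in cluster 1 and at 696 in cluster 2. Its ratios of 1.35 in cluster 1 and 0.676 in cluster 2 came to 1.06 (0.853 to 1.32) and 0.840 (0.664 to 1.05) within depth bins. Nab1 ranged from 1465 to 1627 CPM in clusters 1, 2, 3 and 5, and stood at 2177 (1380 to 3267) in cluster 6 on 23 UMIs. It was low in cluster 4, at 1011 CPM (779 to 1291), a ratio of 0.641 (0.487 to 0.830) and of 0.659 within depth bins. In that cluster 39.2% of the 240 genes had an interval below 1, so Nab1 moved there with many other genes. With 12 components the ratio of Nab1 was 0.902 in the best-matching cluster, whose overlap with cluster 4 was only 0.257. In cluster 6, where 3.33% of genes had an interval above 1, no member's interval excluded 1.

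Sox17 had 18 of its 34 UMIs in cluster 1, at 166 CPM (98.3 to 262), and 9 in cluster 3, at 114. The ratio in cluster 1 was 3.43 (1.65 to 7.19) and 4.15 (2.00 to 8.70) within depth bins, on 13 barcodes. At a coarser clustering (resolution 0.25) the ratio was 1.43 in the best-matching cluster, at an overlap of 0.501. Sox17 had 6 UMIs in cluster 2, 1 in cluster 4 and 0 in clusters 5 and 6. Over the 6 genes and 6 clusters, 12 of 36 ratios (33.3%) had an interval that excluded 1, near the 36.7% of 1440 ratios over all 240 genes. Of the 12, 8 also did so within depth bins, all 8 in the same direction.

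**Figure D5:**
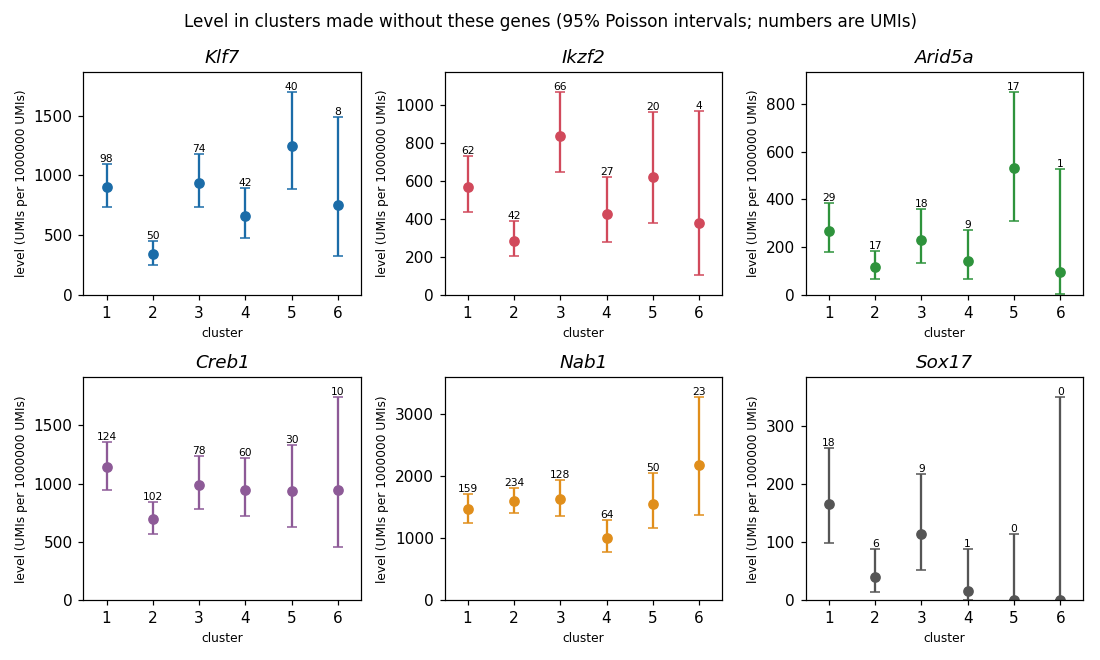
Level of each gene (vertical axis, UMIs per 1000000 UMIs, starting at 0) in 6 clusters made without these genes (horizontal axis), with 95% Poisson intervals and the number of UMIs above each interval. Klf7 and Arid5a are highest in cluster 5, Ikzf2 in cluster 3 and Sox17 in cluster 1, and Klf7 and Ikzf2 are lowest in cluster 2.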

How the data were processed

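A single table of whole-number counts, genes by cell barcodes, was deposited by the authors. Per the submitters' processing notes, Cell Ranger, Seurat 2.3.0 and the build mm10 were used, without their roles. No gene annotation, strand setting or filter is named there. Values were read as UMIs, which no source states. The row of Asb18 is incomplete (928 values, all 0) and was left out, and 0 value columns were left unused. Barcodes under 100 UMIs (72, with 5043 UMIs) were left out. No barcode occurred in 2 columns, and doublets were not called.

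The 6 genes and all gene lists were chosen with earlier results of these data known. CPM intervals are exact Poisson, shares Clopper-Pearson, and ratios conditional binomial. Named genes were the members, list genes with 50 or more UMIs, the 5 highest and 5 lowest companions of each member, its 3 highest correlations, and each cluster's 5 leading genes; values of some genes that this rule names are not reported here. Clusters came from Pearson residuals (theta 100, limit 10), 8 components, 15 neighbours and Leiden at resolution 0.5 (leidenalg 0.10.2, igraph 0.11.9, Python 3.11.15, numpy 2.4.6, scipy 1.17.1). The ratio code was tested on simulated data.

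All 25 listed factors and 13 coregulators have rows, whereas the relatives and partners listed for Klf7 (10 genes), Ikzf2 (4), Arid5a (8), Creb1 (10), Nab1 (5) and Sox17 (9) had 0 rows and were not analysed here. Of the other marker lists, surface pit, mucous neck and chief cells had 0 rows. Parietal cells had 1 of 4, enterocytes 1 of 5, endocrine cells 4 of 9, T cells 4 of 6, other immune cells 2 of 5, and fibroblasts and muscle 4 of 5.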

Additional observations from a re-analysis of the deposited data

Results flagged for a closer look

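In the 72 barcodes left out for holding under 100 UMIs, the limit that a count of 0 allows is 595 CPM over their 5043 UMIs. Above this limit were 4 of the 6 genes, and the share over all genes of the table was not taken. The levels of Nab1, Creb1 and Klf7 in the kept barcodes also lie above 595 CPM, so passing it follows in part from abundance. Klf7 stood at 2578 CPM on 13 UMIs in 13 barcodes, 3.63 times its level in the kept barcodes (1.91 to 6.30). Ikzf2 was at 1586 CPM on 8 UMIs in 5 barcodes, a ratio of 3.16 (1.35 to 6.33). For Nab1 the level was 1983 CPM on 10 UMIs, with a ratio of 1.33 (0.633 to 2.45), and for Creb1 1388 CPM on 7 UMIs, with a ratio of 1.51 (0.604 to 3.14). The intervals of Klf7 and Ikzf2 exclude 1 and those of Nab1 and Creb1 do not. Arid5a had 1 UMI in these barcodes, a ratio of 0.958 (0.0240 to 5.47), and Sox17 had 0.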

How the results depend on the processing

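With Rpl37a, Rpl7 and Rpl31 left out of the totals, levels became 1188 CPM for Klf7, 841.5 for Ikzf2, 346.5 for Arid5a, 1538 for Creb1, 2505 for Nab1 and 129.5 for Sox17, because the totals are smaller. All 36 alternatives of the shallow to deep ratios stayed on the same side, and 87 of 96 co-detection alternatives stayed within the counting interval. The co-detection ratio of Arid5a-Sox17 was 0 without the deepest 5% of barcodes. Thinned to 100 UMIs, Klf7-Nab1 was 0.616, Ikzf2-Creb1 0.866, Creb1-Nab1 1.37, Creb1-Sox17 2.56, and Arid5a-Creb1, Arid5a-Sox17 and Klf7-Sox17 were 0, with 4 of 10 pairs above 1. Thinning leaves few UMIs, and no other cause was tested.

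The number of genes 1.5-fold higher or lower followed the filter. With 5 or more expected UMIs, Klf7 had 18 higher and 18 lower, Ikzf2 18 lower, Arid5a 14 and 15, Creb1 7 higher and Nab1 10 and 24. With 20 or more, Klf7 had 3 and 7, Ikzf2 2 and 4, Arid5a 4 and 4, Creb1 1 and 3, and Nab1 3 and 5. With 50 or more UMIs in all, a filter chosen after seeing the data, Klf7 had 14 higher, Ikzf2 14 lower, Arid5a 21 and 21, and Nab1 5 lower. Thinned, Klf7 had 5 lower, Ikzf2 0 higher, Arid5a 2 and 1, Creb1 1 higher and Nab1 7 lower. Without the deepest 5% of barcodes Ikzf2 had 5 higher.

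Of 400 alternatives for named genes 14 lay on the other side of 1. Resp18 with Creb1 was 1.26 with a minimum of 200 UMIs, and also without its 3 richest barcodes (added after seeing the data). Thinned, Slc23a3 was 0.827 with Ikzf2 and 0.970 with Nab1, Alpi 1.29 with Ikzf2, Klf7 0.824, Abcb6 1.12 and Orc2 1.27 with Arid5a, Ankrd44 0.977 with Creb1 and Myl1 1.20 and Gulp1 1.27 with Nab1. Resp18 with Nab1 was 0.495 under the settings named for Creb1, and Gulp1 1.05 without the deepest 5% of barcodes. The other cluster ratios kept their direction, but Klf7 in cluster 1 was 0.925 at resolution 1 and 0.926 within depth bins. Beyond this the cause was not tested. Ratios at other clustering settings are of the best-matching cluster. Its overlap was only 0.107 for cluster 5 at resolution 0.25, so a kept direction is not always that of the same barcodes. No paired analysis was possible because barcodes carry no sample name and there is 1 group, and for the same reason no sample could be left out in turn. Totals over part of 1 chromosome limit every count.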
